A study of Ciona robusta with 12 samples.

Results

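Of 15284 gene models measured in the tunicate Ciona robusta, 58 had a low mean level in carrier-treated embryos at the 64-cell stage and a higher one at the 112-cell stage. At 112 cells they were much lower when the embryos had received U0126. These late U0126-sensitive genes were chosen from the measured values by 3 conditions, with each library's reads scaled to counts per 1000000 reads (CPM). The mean over DMSO embryos had to be at least 3 CPM at 112 cells and under 2 CPM at 64 cells, and U0126 embryos at 112 cells had to hold at most 0.5 of the DMSO level in each of the 3 replicate pairs that share a number. The level conditions alone were met by 291 genes, and the U0126 condition then kept 58 of them (19.9%) and left 233 other newly active genes.

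U0126 is an inhibitor of MEK, the kinase that activates ERK. In ascidian embryos, fibroblast growth factor (FGF) signals through receptor tyrosine kinases, Ras, Raf, MEK and ERK to Ets-family transcription factors, and this route is known for inducing notochord, neural and mesenchyme fates during the cleavage stages. Genes that this route induces directly are switched on in cells that received the signal. Whether the late U0126-sensitive genes are direct targets, and in which cells they are expressed, was not tested here.

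All 12 libraries came from embryos kept at 21 °C, of which 300 were pooled for each library, and were made with a stranded mRNA kit. Treatment began at the 32-cell stage with U0126, whose labelled dose of 4 mM is high for this compound and could not be checked, or with DMSO diluted 1:1000. Collection at 64 or 112 cells gave 4 groups of 3 replicates (DMSO or U0126 at each stage), and no transgene or mutation is named. The series' text calls the replicates biological, but the labels name no clutch, day or batch, so a p-value measures the spread between these samples whatever its source. Each library is RNA of whole embryos, in which fewer cells of a type and less RNA per cell cannot be told apart.

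The libraries held 10623872 to 15956670 reads, so that 3 reads, the limit a count of 0 allows, correspond to 0.188 to 0.282 CPM; this limit covers counting error only. DMSO replicate 3 at 112 cells was the shallowest library and stood apart: 254 genes were at least 4-fold lower in it than in every other library, against 6 to 96 genes in the other 11 libraries. Some results, among them the count of genes chosen and the calls between stages, are therefore also given without it or without number 3. Other values at 112 cells include it. The deposited tables name genes only by KH2012 identifiers and pair none of them with a gene name, so the members are described by identifier and no role is given. CPM is not divided by transcript length, and its values are compared between libraries for the same gene, not between genes as amounts of transcript.

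At 64 cells, the members were low in DMSO embryos, but most were not absent. Their mean DMSO level at that stage had a median of 0.728 CPM, with 42 members under 1 CPM and 16 between 1 and 2 CPM. Only 4 members had no more than 3 reads in each DMSO library at 64 cells, and 1 of these, KH.C2.957, had none. "First on after 64 cells" therefore holds as a statement about level, and 57 of the 58 genes had at least 1 read in DMSO embryos at 64 cells. At 112 cells, the mean DMSO level ran from 3.03 to 41.8 CPM with a median of 6.13 CPM. The median of the members' ratios of mean level, 112 over 64 cells, was 11.2 in DMSO embryos, leaving out KH.C2.957. These values chose the genes and are a description.

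**Figure D1:**
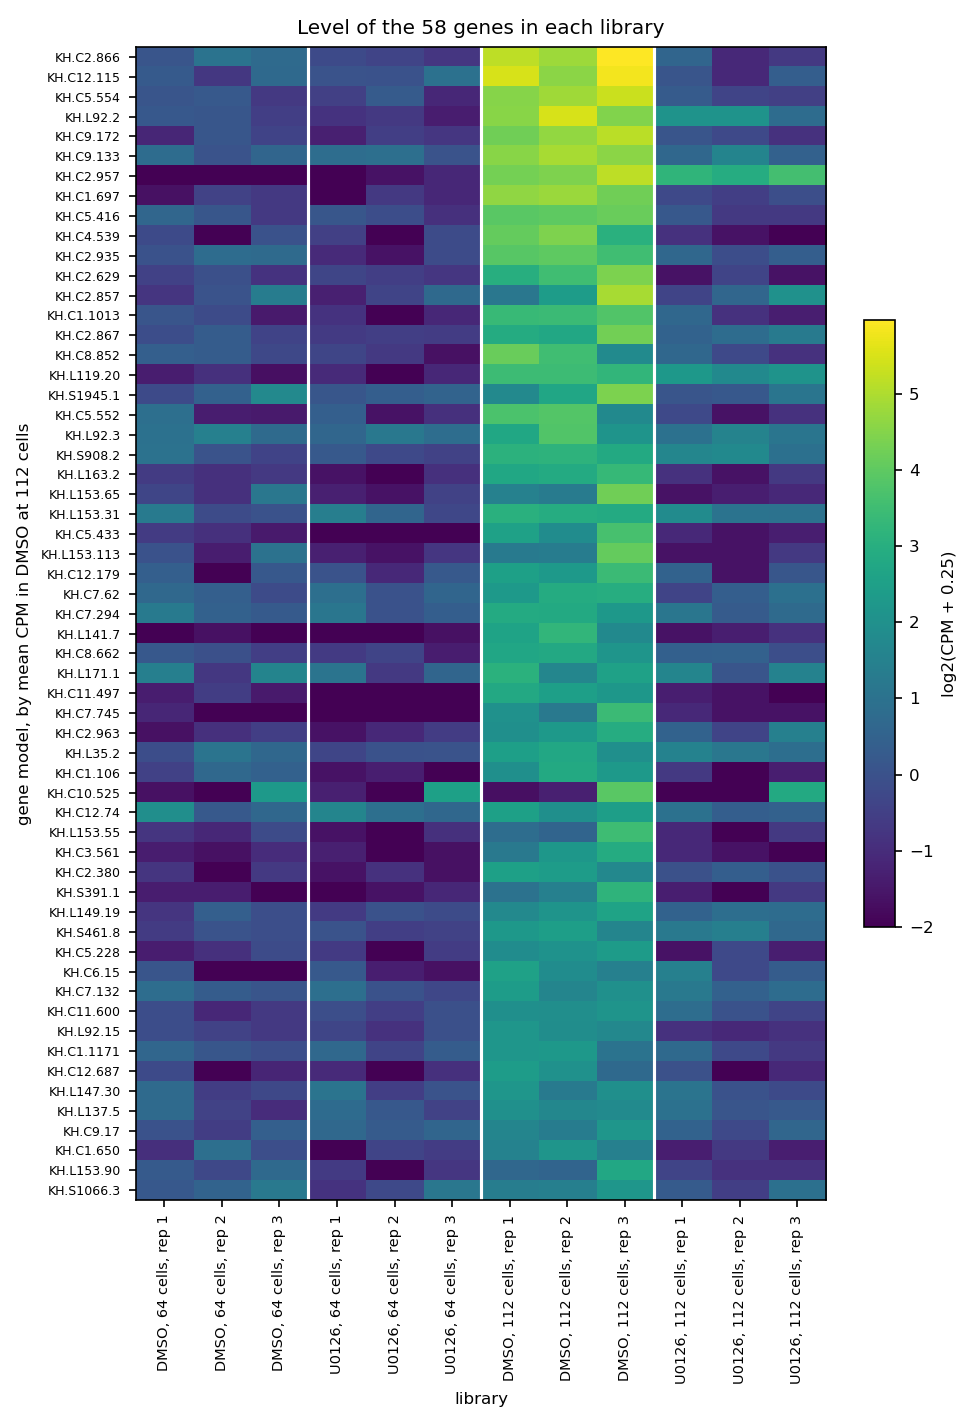
Level of each of the 58 genes (rows, ordered by mean CPM in DMSO at 112 cells) in each of the 12 libraries (columns), as log2(CPM + 0.25). The 3 DMSO libraries at 112 cells form the bright block, while the U0126 libraries at 112 cells are mostly as dark as both groups at 64 cells; KH.C2.957, KH.L119.20 and KH.L92.2 are the brightest rows among the U0126 libraries at 112 cells.

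The 10 members with the highest level in DMSO embryos at 112 cells were KH.C2.866, KH.C12.115, KH.C5.554, KH.L92.2, KH.C9.172, KH.C9.133, KH.C2.957, KH.C1.697, KH.C5.416 and KH.C4.539. KH.C2.866 stood at 35.6, 27.5 and 62.2 CPM in DMSO replicates 1 to 3 at 112 cells (41.8 ± 18.2, SD, n = 3) and at 1.26, 0.226 and 0.379 CPM in the U0126 replicates (0.621 ± 0.556, SD, n = 3). At 64 cells the same gene stood at 0.817, 1.78 and 1.45 CPM in DMSO and 0.614, 0.521 and 0.352 CPM in U0126. All 3 DMSO libraries at 112 cells were thus far above the other 9 libraries, and the U0126 libraries at 112 cells lay in the range of the 64-cell libraries or below it.

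KH.C12.115 had 44.7, 23.7 and 56.9 CPM in DMSO embryos at 112 cells and 0.813, 0.226 and 1.06 CPM in U0126 embryos, a U0126 mean of 1.68% of the DMSO mean. KH.C5.554 had 22.7, 28.1 and 40.3 CPM in DMSO and 0.961, 0.527 and 0.455 CPM in U0126, or 2.13%. KH.C9.172 had 18.6, 25.1 and 35.3 CPM in DMSO and 0.813, 0.602 and 0.303 CPM in U0126, or 2.17%. In these 3 genes the DMSO libraries spread widely among themselves, yet the lowest DMSO library was 22.3, 23.7 and 22.9 times the highest U0126 library.

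KH.C9.133 varied less, with 22.9, 29.97 and 23.9 CPM in DMSO embryos at 112 cells and 1.33, 2.79 and 1.14 CPM in U0126 embryos (6.84%). KH.C1.697 had 24.9, 27.0 and 18.7 CPM in DMSO and 0.591, 0.452 and 0.682 CPM in U0126 (2.44%). KH.C5.416 had 14.98, 15.6 and 17.3 CPM in DMSO and 0.887, 0.376 and 0.379 CPM in U0126 (3.43%). For all 3 genes the groups were far apart and the DMSO replicates lay close together. KH.C4.539, the tenth by level, had 16.7, 21.0 and 8.001 CPM in DMSO and 4, 1 and 0 reads in the U0126 libraries. Its U0126 mean was 0.812% of the DMSO mean, a value that rests on these 5 reads and cannot be ranked against other genes with as few.

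The residual level in U0126 embryos at 112 cells spread over a wide range. As a percentage of the DMSO mean it had a median of 10.4, quartiles of 3.22 and 29.6 and a maximum of 47.2, which the rule limits. It was at most 5% in 20 members, at most 10% in 28, between 10% and 25% in 12 and above 25% in 18. The median over members was 13.9% in pair 1, 9.11% in pair 2 and 9.47% in pair 3. Adding 0.5 CPM to both groups, which damps ratios of low values, raised the overall median to 18.6%. These percentages come from the contrast that chose the genes and carry no test.

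Beside KH.C4.539, the 10 members with the lowest computed ratio included KH.C11.497, KH.C2.866, KH.C12.115, KH.C2.629, KH.L153.65, KH.C5.433, KH.C5.554, KH.C9.172 and KH.C3.561, at 1.34% to 2.19% of DMSO. KH.C11.497 had 6.77, 5.44 and 4.42 CPM in DMSO embryos at 112 cells and 2, 1 and 0 reads in the U0126 libraries. KH.C2.629 had 7.77, 11.2 and 20.6 CPM in DMSO and 1, 7 and 1 reads in U0126. KH.C5.433 had 5.58, 3.45 and 12.3 CPM in DMSO and 3, 1 and 2 reads in U0126. At so few reads, U0126 levels under about 0.2 CPM could not be ordered between genes at this depth, and 5 members had no more than 3 reads in each U0126 library at 112 cells. KH.C3.561 had 2.07, 4.37 and 7.15 CPM in DMSO and 3, 1 and 0 reads in U0126.

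In 56 of the 58 genes, every U0126 library at 112 cells was below every DMSO library. The same held for 16.1% of the 11650 genes that passed a filter on low values (3 or more libraries with a normalized count of 10 or more), and since the rule used this contrast nothing is read from the difference. The exceptions were KH.C10.525 and KH.C2.857, in both of which replicate 3 stood far above the others. KH.C10.525 had 0.0627, 0.153 and 14.97 CPM in DMSO embryos at 112 cells and 0, 0 and 6.97 CPM in U0126 embryos. KH.C2.857 had 2.01, 4.98 and 29.8 CPM in DMSO and 0.517, 1.28 and 3.87 CPM in U0126. KH.C10.525 also had 4.68 CPM in DMSO replicate 3 and 5.57 CPM in U0126 replicate 3 at 64 cells, so it was not silent at 64 cells in the libraries of number 3, and its inclusion rests on them.

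**Figure D2:**
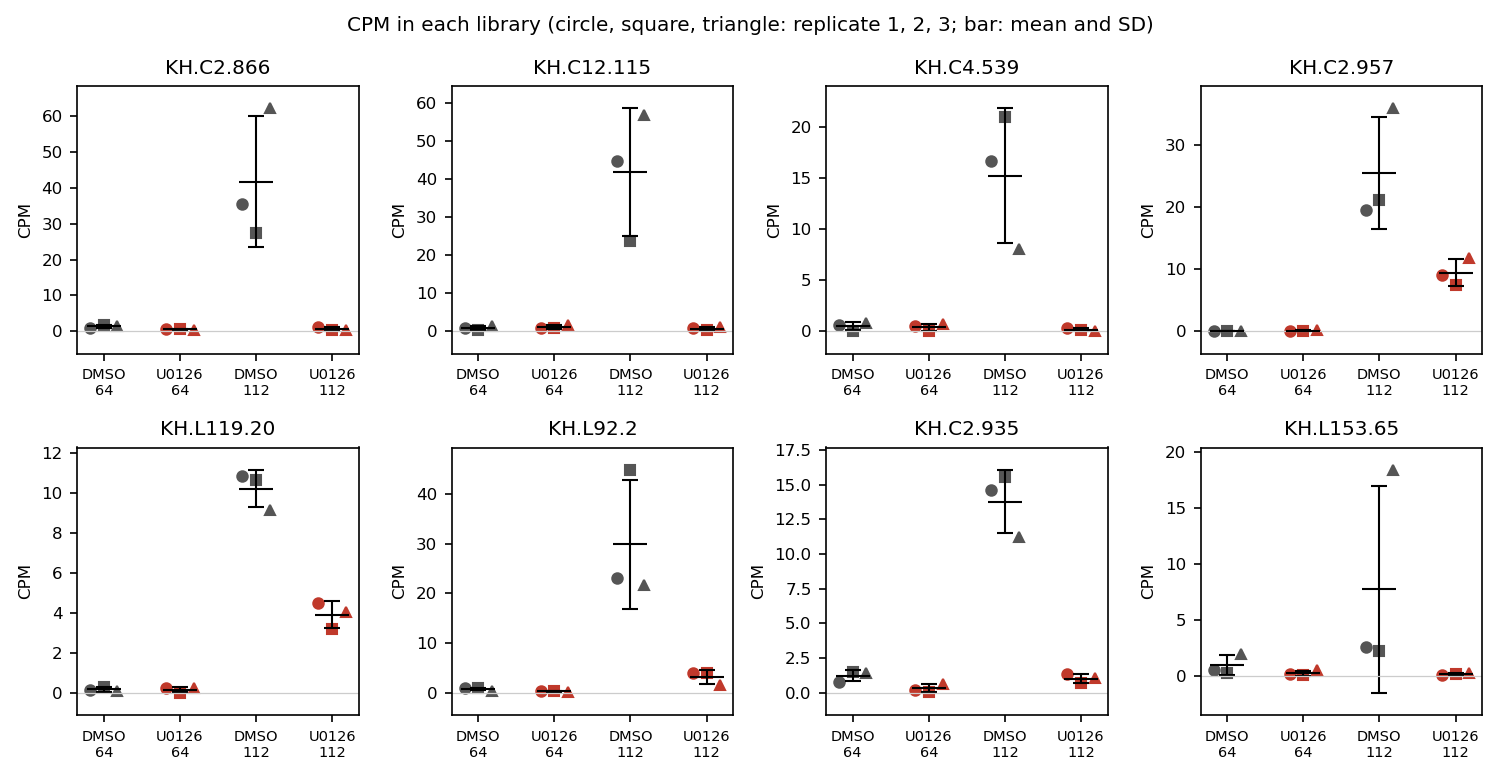
CPM of 8 members in each library, by treatment and stage (cells); grey marks DMSO and red marks U0126, circles, squares and triangles are replicates 1, 2 and 3, and the bar shows the mean and SD of 3 libraries. KH.C2.866, KH.C12.115 and KH.C4.539 stay near 0 in U0126 at 112 cells, KH.C2.957 and KH.L119.20 reach intermediate levels, and KH.L153.65 is highest by far in DMSO replicate 3 at 112 cells.

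A measure the choice did not use is the replicate pair left out when the genes are chosen on the other numbers. Chosen on replicates 2 and 3, 70 genes met the conditions, and 56 of them (80.0%) were at most 0.5 times DMSO in pair 1, against 20.9% of the 321 genes that met the level conditions. With pair 2 left out the counts were 60 of 67 genes (89.6%), against 23.4% of 329. With pair 3 left out they were 49 of 51 genes (96.1%), against 30.5% of 243. The median U0126 level in the left-out pair was 23.6%, 14.2% and 11.6% of DMSO for the chosen genes and 105%, 85.9% and 83.0% for all genes meeting the level conditions. The low level in U0126 embryos at 112 cells thus held for most chosen genes in a pair of libraries that had no part in the choice.

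The genes nearest each limit of the rule, picked on the value that the limit concerns, were as follows. By mean DMSO level at 112 cells, KH.S1066.3, KH.L153.90, KH.C1.650, KH.C9.17 and KH.L137.5 lay just inside at 3.03 to 3.35 CPM, and KH.C3.722, KH.L139.18, KH.C8.588, KH.L99.8 and KH.C7.285 just outside at 2.939 to 2.67 CPM. By DMSO level at 64 cells, KH.C12.74, KH.L92.3, KH.L171.1, KH.S1945.1 and KH.C10.525 lay inside at 1.95 to 1.58 CPM, and KH.L170.42, KH.L9.36, KH.C10.338, KH.C10.368 and KH.C6.38 outside at 2.46 to 2.61 CPM. By the highest U0126 percentage in any pair, KH.L35.2, KH.S461.8, KH.L171.1, KH.C10.525 and KH.C2.957 lay inside at 49.4% to 46.0%, and KH.C7.569, KH.S1090.4, KH.L144.5, KH.C5.202 and KH.C1.1221 outside at 50.7% to 55.3%.

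Whether U0126 already lowered these genes at 64 cells can be tested, because the U0126 libraries at 64 cells had no part in the rule and the DMSO libraries at 64 cells entered it only through the limit of 2 CPM. Summed over the 58 genes, DMSO embryos at 64 cells held 47.8, 37.2 and 49.0 CPM and U0126 embryos 37.2, 25.3 and 37.0 CPM. U0126 replicate 1 was as high as DMSO replicate 2, so the groups overlapped, but within each pair the U0126 library was lower, at 77.8%, 68.1% and 75.6% of its DMSO partner. The 233 other newly active genes summed to 277, 252 and 253 CPM in DMSO and 331, 277 and 332 CPM in U0126 at the same stage, or 119.4%, 110% and 131% of DMSO. The 2 groups of genes thus lay on opposite sides of DMSO in every pair. The rule limits the DMSO level at 64 cells but not the U0126 level, which by itself favours ratios above DMSO in both groups of genes. That the other newly active genes lay above DMSO is therefore only a description.

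No single member passed the threshold at 64 cells in an unpaired test. Same-numbered libraries deviated together, and an unpaired fit counts the spread between replicate numbers as error. Over all genes, an unadjusted p under 0.05 in limma was reached by 0.890% without the replicate block and 8.17% with it. The unpaired test was thus insensitive, and its lack of calls does not show the members to be unchanged. With limma on log2(normalized count + 1) in the 6 libraries of the stage, 2 of 10792 genes were called lower at an adjusted p under 0.05 (0.0185%) and 0 higher (0%). Only 23 of the 58 members passed the filter on low values there; 0 of them were called, 2 had an unadjusted p under 0.05 (0.890% of all genes tested did), and 0 were called by edgeR (0.00927% of all genes lower, 0% higher) or by DESeq2 (0.120% lower, 0.0371% higher) on recovered reads. In a joint limma fit of all 12 libraries, which admitted all 58 members, 4 of 11650 genes were called lower (0.0343%) and 1 higher (0.00858%). No member was among these 5. An unadjusted p under 0.05 was reached by 8 members (13.8%), all lower in U0126, against 1.18% of all genes. With the replicate block it was reached by 17 members, 15 lower and 2 higher, against 2.43% of all genes. Members too low for the filter at 64 cells could enter the joint fit through later-stage DMSO libraries, where the rule made them high. These shares are therefore a description, not a like comparison with all genes. In the joint fit 42 of 58 members had a negative log2 fold change, with a median of -0.26. Of the 233 other newly active genes 80 did, with a median of 0.20, and the median over all genes tested was 0.02.

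The 2 members with an unadjusted p under 0.05 in the 6-library test were KH.C2.935 and KH.C2.866. With the replicate number as a block, KH.C2.935 was called in limma and in edgeR, and KH.C2.866 in edgeR only. KH.C2.935 had 0.749, 1.498 and 1.45 CPM in DMSO embryos and 0.230, 0.0745 and 0.634 CPM in U0126 embryos at 64 cells, without overlap. Its log2 fold change of -1.97 had an SE of 0.72 and an adjusted p of 1.00 in limma without the block, and an SE of 0.47 and an adjusted p of 0.00265 with it, when 0.658% of the genes tested were called lower and 0.695% higher. Over 12 alternatives its adjusted p ran from 0.00265 to 1.00 and it was called in 2. KH.C2.866, whose values at 64 cells are given above and did not overlap, had a log2 fold change of -1.26 (SE 0.50). It was called in 1 of 12 alternatives, edgeR with the block, at an adjusted p of 0.0365, where 0.621% of all genes were called lower and 0.602% higher. The blocked limma fit of 6 libraries has only 2 residual degrees of freedom, and the joint fit with the block called 0 members.

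Pair by pair, 22 of the 58 genes (37.9%) were lower in U0126 than in DMSO in each of the 3 pairs at 64 cells, against 19.9% of 11650 genes and 27 of the 233 other newly active genes (11.6%). Higher in each pair were 5 members (8.62%), close to the 9.82% of all 11650 genes, and 64 of the other newly active genes (27.5%). At or under 0.5 times DMSO in each pair were 9 members (15.5%), against 26 of 11650 genes (0.223%) and 0 of the 233. Ratios of genes as low as these at 64 cells are less precise than those of most genes. The other newly active genes, with a median DMSO level of 1.18 CPM at 64 cells, are the nearer comparison. The limit on that level favours values above DMSO in both sets, so the count of other genes higher in each pair is a description. With the members chosen without replicate 3, the counts were 20 and 6 of 51 genes. In single pairs 1, 2 and 3, 37, 40 and 35 of the 58 genes were lower in U0126, against 5973, 6958 and 6461 of 11650 genes. Of the 233 other newly active genes 82, 102 and 83 were lower.

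The 9 genes at most 0.5 times DMSO in each pair at 64 cells were KH.C1.106, KH.C11.497, KH.C2.935, KH.C5.433, KH.C8.852, KH.L153.55, KH.L153.65, KH.L153.90 and KH.L92.2, a set picked by its values and given without a test. KH.C1.106 had 7, 19 and 18 reads in DMSO and 1, 2 and 0 reads in U0126. KH.L153.65 had 8, 4 and 31 reads in DMSO and 2, 1 and 7 in U0126. KH.C5.433 had 6, 4 and 2 reads in DMSO and none in U0126, which at this depth allows up to 3 reads in each library. In all, the 9 genes drew 297 reads in the DMSO libraries and 65 in the U0126 libraries, and the smallest adjusted p among them in the joint limma fit was 0.759.

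**Figure D3:**
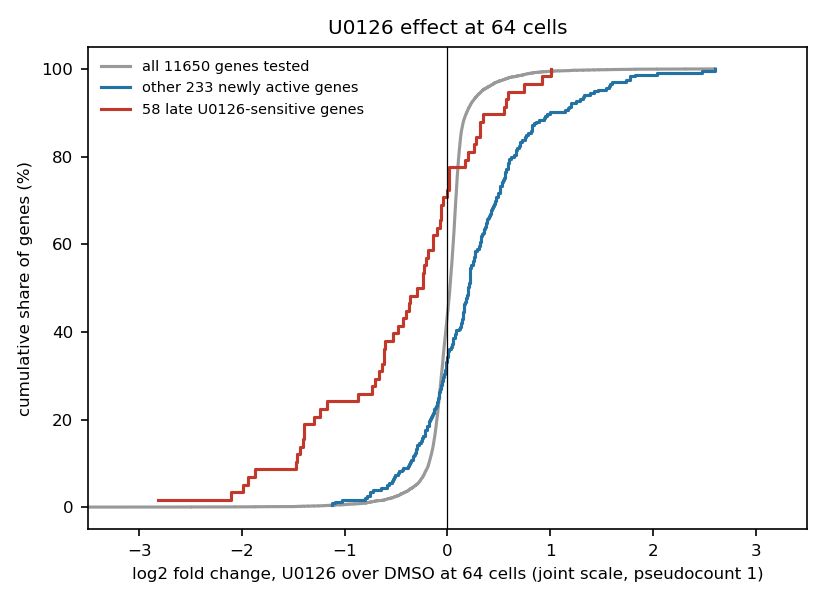
Cumulative share of genes (%) by log2 fold change of U0126 over DMSO at 64 cells on the joint scale, for the 58 late U0126-sensitive genes, the other 233 newly active genes and all 11650 genes tested. The curve of the 58 genes lies to the left, with a median of -0.26, and that of the other newly active genes to the right, with a median of 0.20. The limit on the DMSO level at 64 cells favours positive values in both of these sets.

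How far the genes were activated between the stages in embryos that had received U0126 was tested on the joint scale of all 12 libraries. The U0126 libraries at 112 cells entered the rule as a fraction of DMSO, which caps the increase a member can show. Summed over members, U0126 embryos went from 37.2, 25.3 and 37.0 CPM at 64 cells to 73.7, 54.1 and 71.5 CPM at 112 cells, or 1.98, 2.14 and 1.93 times, and the 2 stages did not overlap. In DMSO embryos the sum went from 47.8, 37.2 and 49.0 to 503, 531 and 698 CPM, or 10.522, 14.3 and 14.2 times. The other newly active genes went up 11.3, 10.9 and 11.6 times in U0126 embryos and 7.75, 9.42 and 12.7 times in DMSO embryos. Of the members' summed increase in U0126 embryos, 65.8% came from the 7 genes called in limma below. A negative log2 change between the stages in U0126 embryos was seen in 14 of the 58 members.

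In limma, 571 of 11650 genes rose from 64 to 112 cells in U0126 embryos (4.90%) and 220 fell (1.89%). Among the members 7 rose (12.07%) and 0 fell, with a median log2 change of 0.51. An unadjusted p under 0.05 was reached by 15 (25.9%), all upward, against 16.4% of all genes in either direction. Members could pass the filter through the DMSO libraries at 112 cells, where the rule made them high, so these shares are a description. Of the 233 other newly active genes 138 rose (59.2%), with a median of 2.15; the rule itself separates the 2 groups here, so that contrast is a description. With the replicate number as a block, 14 members rose (24.1%) when 8.32% of all genes did and 6.82% fell. On recovered reads, edgeR gave 7 members (4.75% of all genes rose and 1.76% fell), or 11 with the block (8.19% and 6.33%), and DESeq2 gave 10 (5.67% and 3.39%); no member fell. The remaining 51 members in the unblocked fit are not shown to be unchanged, since 44 of the 58 had a positive change. When limma was fitted to the 6 U0126 libraries alone, 28 members passed the filter and 6 of them rose. There, 573 of 11068 genes rose and 253 fell.

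KH.C2.957 was the clearest of the 7. It had 0 reads in each DMSO library and 0, 0.0745 and 0.211 CPM in the U0126 libraries at 64 cells, then 19.6, 21.2 and 36.0 CPM in DMSO and 9.02, 7.45 and 11.8 CPM in U0126 at 112 cells. Every library at 112 cells was far above every library at 64 cells, and U0126 embryos reached 36.9% of the DMSO mean. Its log2 change in U0126 embryos was 6.06 (SE 0.47, adjusted p = 1.04e-05, limma), a value that depends on the pseudocount because the 64-cell libraries held at most 3 reads, and it ran from 3.93 to 6.67 over 20 alternatives.

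KH.L119.20 had 0.230, 0 and 0.211 CPM in U0126 embryos at 64 cells and 4.51, 3.16 and 4.02 CPM at 112 cells, against 10.8, 10.7 and 9.13 CPM in DMSO at 112 cells. Its log2 change in U0126 embryos was 4.49 (SE 0.55, adjusted p = 0.000308, limma), and ran from 2.68 to 4.94 over the alternatives. KH.L92.2 had 0.307, 0.372 and 0.141 CPM in U0126 embryos at 64 cells and 3.99, 3.99 and 1.52 CPM at 112 cells, against 23.1, 44.9 and 21.7 CPM in DMSO. Its log2 change was 3.24 (SE 0.47, adjusted p = 0.00123, limma). These 3 genes were called under all 20 alternatives. In each of them the U0126 libraries at 112 cells lay above both 64-cell groups without overlap. They also lay below every DMSO library at 112 cells, but the rule itself required a lower level than DMSO in each pair.

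The other 4 rose by less. KH.S908.2 (log2 change 1.89, SE 0.43, adjusted p = 0.0193, limma) and KH.S461.8 (1.73, SE 0.40, adjusted p = 0.0211) were called under 16 of 20 alternatives, and lost the call without either of U0126 replicates 1 and 2 at 112 cells or of U0126 replicates 2 and 3 at 64 cells, with adjusted p up to 0.0890 and 0.0893. KH.C2.867 (1.82, SE 0.42, adjusted p = 0.0226) was called under 14, with adjusted p up to 0.116, and lost the call with a pseudocount of 8 and without any of the U0126 libraries except replicate 1 at 112 cells. KH.L35.2 (1.55, SE 0.42, adjusted p = 0.0477) was called under 8, with adjusted p up to 0.203; each U0126 library, DMSO replicate 3 at 64 cells and DMSO replicates 1 and 2 at 112 cells ended its call when left out. In KH.S461.8 the U0126 libraries at 112 cells had 2.07, 2.48 and 1.36 CPM against 4.51, 5.21 and 2.82 CPM in DMSO. The lower level in each pair was set by the rule, and the groups did not overlap.

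As a share of each gene's own DMSO increase, which the rule limits and which is given as a description, the increase in U0126 embryos was 39.5% for KH.S461.8, 37.3% for KH.L119.20, 36.5% for KH.C2.957, 35.0% for KH.L35.2, 27.1% for KH.S908.2, 11.9% for KH.C2.867 and 9.91% for KH.L92.2. The number that rose depended on single libraries: it was 3 without U0126 replicate 2 at 64 cells, and 4 when the library left out was U0126 replicate 3 at 64 cells or, at 112 cells, U0126 replicate 1 or 2. The 7 further genes called with the block were KH.C2.857, KH.C2.935, KH.C2.963, KH.C6.15, KH.C7.132, KH.C8.662 and KH.L149.19, with log2 changes of 0.81 to 2.21.

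**Figure D4:**
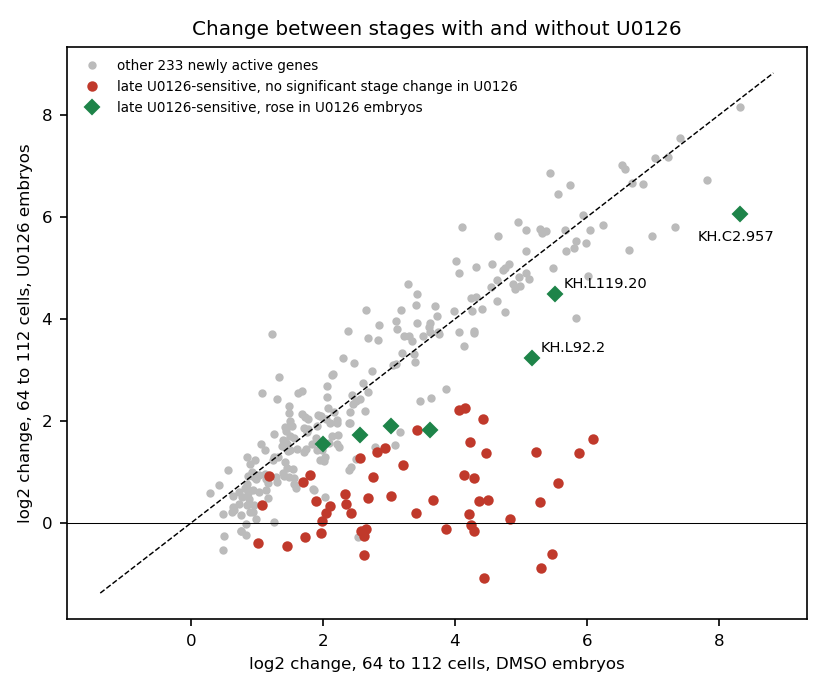
Log2 change from 64 to 112 cells in U0126 embryos (vertical) against that in DMSO embryos (horizontal) on the joint scale, each point a gene and the dashed line equal change. The 7 members that rose in U0126 embryos are green diamonds; most of the other 51 members lie well below the line, and most of the other 233 newly active genes lie near it.

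The members differed in how evenly the 3 DMSO libraries at 112 cells shared them, a pattern seen in the values and given without a test. In 11 members DMSO replicate 3 at 112 cells was at least 2-fold above both other replicates, and in 5 (KH.C1.1171, KH.C12.687, KH.C4.539, KH.C5.552 and KH.C8.852) at most 0.5 times both. KH.L153.65 had 2.57, 2.22 and 18.4 CPM in DMSO embryos at 112 cells and 0.0739, 0.151 and 0.227 CPM in U0126 embryos. KH.C5.552 showed the opposite, with 12.9, 13.95 and 3.20 CPM in DMSO. In both genes replicates 1 and 2 were alike and replicate 3 was the one apart.

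The 11 genes summed to 31.1, 33.2 and 169 CPM in DMSO and 3.99, 4.37 and 16.8 CPM in U0126 at 112 cells. At 64 cells they summed to 5.04, 4.57 and 16.4 CPM in DMSO and 2.30, 2.23 and 10.3 CPM in U0126. In the 3 groups that did not define the set, number 3 had the highest sum, also without KH.C10.525, when the 64-cell sums were 4.97, 4.57 and 11.8 CPM in DMSO and 2.15, 2.23 and 4.72 CPM in U0126. Gene by gene, replicate 3 was the highest in 7 of the 11 in each group at 64 cells and in 8 of 11 in U0126 at 112 cells, and it was the lowest in 3 of 11 in DMSO at 64 cells. The 5 genes low in DMSO replicate 3 summed to 56.4, 54.4 and 17.7 CPM in DMSO and 4.36, 1.36 and 1.21 CPM in U0126 at 112 cells. At 64 cells their sums were 5.24, 1.997 and 2.34 CPM in DMSO and 3.68, 0.968 and 2.26 CPM in U0126, where replicate 2 was the lowest. The other 42 members summed to 416, 443 and 511 CPM in DMSO and 65.3, 48.4 and 53.4 CPM in U0126 at 112 cells. What the libraries of number 3 share is not stated in the labels, and its part in these levels was not tested.

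Leaving number 3 out of the choice kept 47 of the 58 genes among 51 chosen. Without DMSO replicate 3, 9 members averaged under 3 CPM in DMSO at 112 cells (KH.C10.525, KH.C7.745, KH.C9.17, KH.L153.113, KH.L153.55, KH.L153.65, KH.L153.90, KH.S1066.3 and KH.S391.1). Of the 51 genes chosen without number 3, 10 (19.6%) rose from 64 to 112 cells in U0126 embryos. This was in the unblocked limma fit of all 12 libraries, in which 4.90% of all genes rose. With DMSO replicate 3 at 112 cells left out of that fit, 47 of the 58 members passed the filter and 7 of them rose. Of 11524 genes, 679 then rose and 509 fell. An unadjusted p under 0.05 in limma was reached by 27.7% of members and 22.4% of all genes, against 25.9% and 16.4% with that library.

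**Figure D5:**
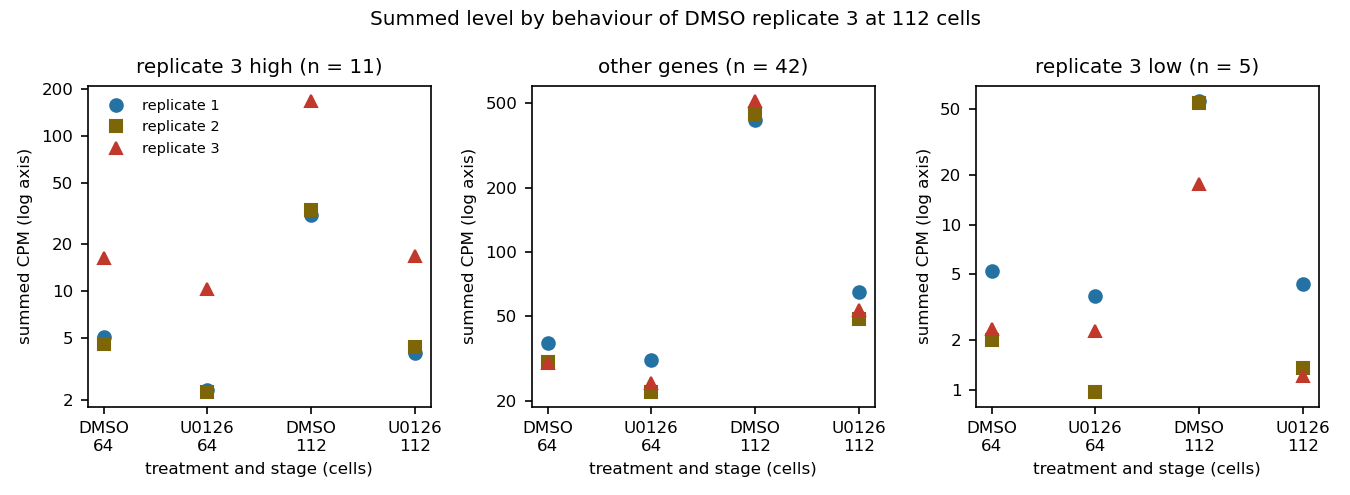
Summed CPM (log axis) of 3 sets of members by treatment and stage, split by whether DMSO replicate 3 at 112 cells was at least 2-fold above both others (11 genes, left), at most 0.5 times both (5 genes, right) or neither (42 genes, middle); markers are replicates 1, 2 and 3. In the left panel replicate 3 has the highest sum in all 4 groups, in DMSO at 112 cells by the choice of the genes, and in the middle panel the 3 replicates lie close together.

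By identifier, 37 members carried a KH.C prefix, 16 KH.L and 5 KH.S, spread over 27 numbered prefixes. KH.C2 held 8 members of 23 newly active genes, among them KH.C2.866 and KH.C2.867, whose numbers are consecutive, as are those of KH.L92.2 and KH.L92.3. All 3 newly active genes of KH.L92, and 5 of the 6 of KH.L153, were members, while KH.C1 held 5 of 25 and KH.C4 1 of 16. Over all prefixes, 19.9% of the newly active genes were members. These prefixes were picked by their values, the counts are small, and nothing is read from them. The paired values of KH.C2.866 and KH.C2.867 differed: U0126 embryos at 112 cells held 1.49% of DMSO for the first and 14.9% for the second. Within KH.L153, KH.L153.65, KH.L153.113, KH.L153.55 and KH.L153.90 were among the 11 genes high in DMSO replicate 3, whereas KH.L153.31 had 8.08, 7.44 and 7.06 CPM in DMSO at 112 cells. Without DMSO replicate 3, the first 4 of these averaged under 3 CPM in DMSO at 112 cells, so the KH.L153 count rests on that library. The sources used here do not say how identifiers relate to position, and reads of near-identical copies could have been split or shared in the authors' counting, so genes of one prefix may not be independent measurements.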

How the data were processed

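Each stage has 1 table of 6 libraries, deposited by the authors. Per the file headers it gives counts after normalization, treated here as a signal with no negative values, and the authors' regularized log2 transform of them. The submitters' processing notes list TopHat2 (2.9.8b) and DESeq (1.8.1). The sources used here do not give the counter, strand setting, filters or build. Overlapping, antisense and near-identical genes are therefore uncertain. The number of value columns left unused was 0.

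In each library 100% of values were whole multiples of the value of 1 read, within 0.01, and reads were recovered by division. The tables were scaled separately by the authors, so stages were compared in CPM or after median-of-ratios scaling of all 12 libraries together. Tests used limma (version 3.58.1, under R 4.3.3) with a pseudocount of 1 on the log2 scale, a variance trend, genes at 10 or more normalized counts in 3 or more libraries, and Benjamini-Hochberg adjustment over all genes tested at 0.05. Alternatives were edgeR 4.0.16 with TMM, DESeq2 1.42.0, other pseudocounts, no filter, the replicate block and single libraries left out. The code was tested on simulated data. Contrasts that chose the members were not tested.

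Deviations from group means correlated at 0.380 to 0.833 between same-numbered samples and at -0.527 to -0.034 between other numbers, across genes, and all 12 libraries correlated best with their own number. Deviations from a group mean cancel within the group, so the negative values between other numbers follow partly from the construction. On the basis of the positive same-number correlations, same-numbered samples were treated as pairs. No libraries were duplicates: the chi-square between replicates was 18.8 to 128 per gene.

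The members, lists and tests were chosen with earlier results of these data known. Genes were named by rule: the 10 highest in DMSO at 112 cells, the 10 lowest ratios, the 5 nearest each side of each limit, and members called in a test. Others were chosen after their values were seen. Of the gene models, 0 matched the reference table of names, so pathway genes, cell type markers and promoter motifs were not analysed here.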

Additional observations from a re-analysis of the deposited data

How the results depend on the processing

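The median log2 fold change at 64 cells over the members that passed the filter, -0.16 over 23 genes, turned to 0.20 over 16 genes without DMSO replicate 1 and to 0.03 over 20 without DMSO replicate 3, with fewer members tested; over all 58 it was -0.28 with no filter and -0.26 in the joint fit. The 58 genes became 38 with a limit of 5 CPM in DMSO at 112 cells, 33 with a limit of 0.25 times DMSO in each pair, and 51 to 70 with one replicate number left out. The median U0126 level at 112 cells moved from 10.4% to 18.6% of DMSO with 0.5 CPM added to both groups, by the construction of the ratio, and ran from 8.18% to 11.8% with one number left out. With the replicate block, members called at 64 cells went from 0 to 1 in limma and to 2 in edgeR, and stayed at 0 in each fit with one library left out. Members that rose from 64 to 112 cells in U0126 embryos went from 7 to 14 with the block in limma and to 11 in edgeR with the block, and ran from 3 to 8 with one library left out; the cause was not tested. Choosing members without replicate 3, and the median-of-ratios scale for the pair counts, were added after seeing the data. Depth limits the 64-cell results: 23 of 58 members passed the filter on low values there.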

Other observations

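Among the 233 other newly active genes, which met the level conditions but not the U0126 condition, 10 were at least 2-fold higher in U0126 than in DMSO embryos in each of the 3 pairs at 112 cells. In the authors' deposited regularized log2 values at 64 cells, 42 of the 58 late U0126-sensitive genes and 73 of the 233 others had a lower mean in U0126 than in DMSO embryos. The median difference over the 58 genes was -0.0087 on that scale, which draws weakly expressed genes towards their mean. The share of all genes that were lower was not counted on that scale.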
